A study of Mus musculus with 2 samples.

Results

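Slc15a1, Slc15a2, Slc15a3 and Slc15a4 are the 4 proton-coupled peptide transporter genes described here, out of 32285 genes measured by single-cell RNA-seq in mouse colon tumours. Each was found by its symbol in the gene lists of both libraries, where each symbol stood once. The tumours had been induced with AOM/DSS, which is azoxymethane, a mutagen, given with dextran sulfate sodium, which inflames the colon. A library came from Gsk3b IEC-/- mice and another from Gsk3b IEC+/+ mice, and all animals had the same tumour induction. Gsk3b encodes glycogen synthase kinase 3 beta, a kinase of the complex that marks beta-catenin for degradation. The labels give neither the number, age, sex or strain of the animals nor the driver of the deletion, so how many tumours or animals entered a library is unknown. With 1 library per genotype there was no replicate check, no test was made, and every interval below is an exact 95% interval that covers counting error only. The members were selected on UMI levels and genotype ratios measured earlier in these same libraries, so their levels and ratios are descriptions.

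Members of this family move di- and tripeptides, together with protons, across membranes. Slc15a1, also called PepT1, sits in the brush border of absorptive cells of the small intestine and takes up peptides from the lumen, and it is known for being low in the healthy colon and for carrying small bacterial peptides. Slc15a2, or PepT2, is the high-affinity member best known from kidney, brain and lung. Slc15a3 and Slc15a4 lie in the membranes of endosomes and lysosomes of immune cells, where they export histidine and peptides and carry bacterial muropeptides that reach the receptors Nod1 and Nod2. Slc15a4 also binds the adaptor Tasl, through which endosomal Toll-like receptors activate the transcription factor Irf5.

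In the mouse genome (build mm10, positions of the GENCODE annotation) the 4 genes lie on separate chromosomes. Slc15a1 spans chr14:121459621-121505252 and Slc15a2 spans chr16:36750177-36784962, both on the minus strand. Slc15a3 spans chr19:10839727-10859362 on the plus strand, where it overlaps Tmem132a on the opposite strand. Slc15a4 spans chr5:127595664-127632897 on the minus strand, where it overlaps Glt1d1 on the opposite strand. The sources used here do not say whether counting used the strand, so reads from these overlaps cannot be told apart. RefSeq promoter windows, 250 bases before to 50 bases after a gene's start on build GRCm38.p6, were matched for 3 of the 4 members. The window of Slc15a4 is at a RefSeq start that lies inside the GENCODE span given above, downstream of its outermost start. They are shown because Slc15a1 and Slc15a2 carried the differences between the genotypes described below and Slc15a4 was found in every class. All are on the minus strand, read 5′ to 3′, at chr14:121505205-121505504 for Slc15a1, chr16:36784913-36785212 for Slc15a2 and chr5:127617343-127617642 for Slc15a4. Capitals mark the GC box GGGCGG or its reverse complement CCGCCC.
Slc15a1: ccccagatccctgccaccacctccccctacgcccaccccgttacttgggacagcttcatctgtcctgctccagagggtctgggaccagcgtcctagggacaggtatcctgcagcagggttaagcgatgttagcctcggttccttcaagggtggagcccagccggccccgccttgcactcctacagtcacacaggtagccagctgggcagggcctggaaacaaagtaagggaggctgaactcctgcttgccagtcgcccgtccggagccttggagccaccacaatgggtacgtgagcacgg
Slc15a2: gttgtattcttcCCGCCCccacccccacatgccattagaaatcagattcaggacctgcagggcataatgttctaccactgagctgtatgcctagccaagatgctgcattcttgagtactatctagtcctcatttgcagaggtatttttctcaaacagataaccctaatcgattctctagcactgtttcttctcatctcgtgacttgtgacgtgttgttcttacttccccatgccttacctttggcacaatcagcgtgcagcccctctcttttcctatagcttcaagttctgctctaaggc
Slc15a4: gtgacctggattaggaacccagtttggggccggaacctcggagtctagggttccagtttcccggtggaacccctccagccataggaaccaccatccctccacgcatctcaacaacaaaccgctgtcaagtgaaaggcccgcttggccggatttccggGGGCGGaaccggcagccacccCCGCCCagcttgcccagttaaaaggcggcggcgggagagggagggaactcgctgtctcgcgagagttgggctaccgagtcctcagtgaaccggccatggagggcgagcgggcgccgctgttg
The window of Slc15a4 held 64% G and C with 23 CpG dinucleotides and 2 GC boxes, that of Slc15a1 held 62.7% with 12 CpG and 0 GC boxes, and that of Slc15a2 held 46.3% with 5 CpG and 1 GC box. Of 32851 RefSeq windows of this length, 35.7% held a GC box on either strand, the median G and C content was 52.7%, and the median number of CpG was 7. Searched on both strands, the CCAAT box was in none of these 3 windows and in 37.4% of all windows. The TATA box in the form TATAAA was in none of the 3 and in 13.6% of all, and TTTAT, a motif bound by caudal factors, in none and in 40% of all. The window of Slc15a2, the member that differed most between the genotypes, was thus the one with the least G and C of the 3. A match describes the letters of the window and is no evidence of binding.

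The IEC-/- library held 156641780 UMIs (unique molecular identifiers, each marking a captured RNA molecule) and 10563 cells after filtering, with a median of 3392 UMIs per cell, and the IEC+/+ library held 164574326 UMIs and 9902 cells with a median of 5151. A total of 35 cell barcodes occurred in both libraries. Clusters named from marker lists gave 4193 and 4297 epithelial cells, 3717 and 2751 neutrophils, 760 and 1274 monocytes or macrophages, 757 and 797 T cells and 505 and 120 B cells in the IEC-/- and IEC+/+ library. These 5 classes had 100 or more cells in both libraries and were compared. Their own marker lists were detected in full in both libraries, and the summed level of the 12 epithelial markers was 17289 CPM (counts per 1000000 UMIs of the class) in IEC-/- and 15536 CPM in IEC+/+ epithelial cells. Barcodes with under 100 UMIs, which hold RNA free in the suspension, served as the background level, and an estimated 11.9% of UMIs in IEC-/- cells and 10.1% in IEC+/+ cells were free RNA. Gsk3b itself stood at 241 CPM in IEC-/- and 263 CPM in IEC+/+ epithelial cells, a log2 ratio of −0.13 (−0.15 to −0.10), but tags from the 3′ end of a transcript need not lie in the deleted part and so do not check the genotype.

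**Figure D1:**
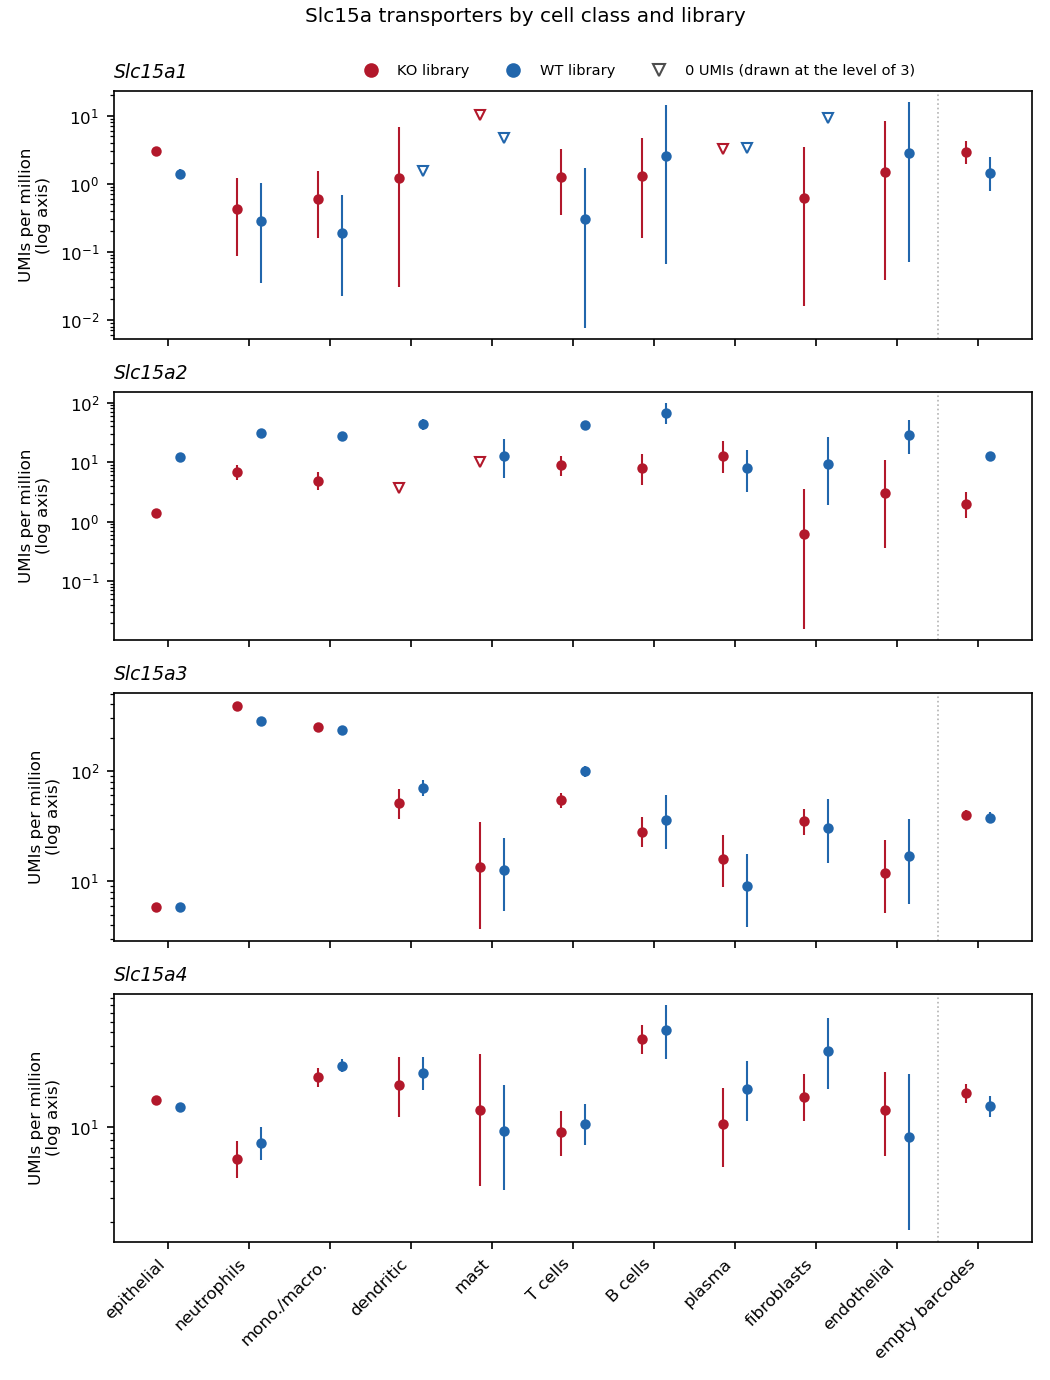
Level of each transporter by class, in CPM on a logarithmic axis. Points are the IEC-/- (KO) and IEC+/+ (WT) libraries, bars are exact 95% Poisson intervals, and open triangles stand at the level of 3 UMIs where none was counted. Slc15a2 is lower in the IEC-/- library in each of the 5 compared classes, while Slc15a3 is highest in neutrophils, at 388 and 280 CPM.

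The 4 genes had separate places in the tumour. Most Slc15a1 UMIs lay in the epithelium, which held 286 of 311 from all IEC-/- cells (92.0%) and 138 of 160 from all IEC+/+ cells (86.2%). Of the UMIs of all genes, epithelial cells held 94006832 of 117482217 in IEC-/- cells and 99700320 of 125545297 in IEC+/+ cells. The epithelial level of Slc15a1 was 1.04-fold and 0.954-fold of that in barcodes with under 100 UMIs. In the IEC+/+ library its interval overlapped those of B cells and blood endothelial cells, each with 1 UMI. A clearer place, a subcluster of surface cells, is given below. Slc15a3 belonged to myeloid cells, Slc15a4 was present in every class, and Slc15a2 was spread over the epithelium and lymphoid and myeloid cells. The fifth family member, Slc15a5, was close to undetected, with 1 UMI in all IEC-/- cells and 0 in all IEC+/+ cells. The plot of levels by class shows these places side by side. Levels are compared between classes and libraries within a gene and never between genes, because a level from 3′ tags is not scaled by length.

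Slc15a1, the luminal peptide carrier, was higher in the IEC-/- epithelium. It had 286 UMIs in IEC-/- epithelial cells, a level of 3.04 CPM (2.70 to 3.42), and 138 UMIs in IEC+/+ epithelial cells, a level of 1.38 CPM (1.16 to 1.64). The log2 ratio of IEC-/- over IEC+/+ was 1.14 (0.84 to 1.44), and the intervals of the levels did not overlap. Of the 18523 genes with 20 or more UMIs in this class, 6.9% were higher and 11.4% were lower by more than 1.5-fold, and 467 genes (2.52%) had a ratio as high as that of Slc15a1 or higher. None of the other 4 compared classes held more than 4 UMIs of Slc15a1 in a library. In barcodes with under 100 UMIs the gene stood at 2.94 CPM in the IEC-/- library and 1.45 CPM in the IEC+/+ library (27 and 13 UMIs), a log2 ratio of 1.02 (0.01 to 2.10). Free RNA thus differed in the same direction, and after subtraction of free RNA the epithelial log2 ratio was 1.15.

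Nearly all of this signal came from a single group of mature surface cells. When the epithelial cells were clustered again into 15 subclusters, with the 4 transporters kept out of the genes used, the subcluster led by Clca4b, Saa1, Ly6m and Krt20 held 259 of 286 Slc15a1 UMIs in the IEC-/- epithelium (90.6%) and 121 of 138 in the IEC+/+ epithelium (87.7%). It comprised 293 IEC-/- and 238 IEC+/+ cells, with 22796 and 27492 UMIs in the median cell. Krt20 is a keratin of differentiated surface cells and Saa1 an acute-phase protein, and by the marker lists this subcluster was absorptive. Its level of Slc15a1 was 34.8 CPM (30.7 to 39.4) in the IEC-/- library and 16.6 CPM (13.8 to 19.8) in the IEC+/+ library, a log2 ratio of 1.07 (0.76 to 1.40). All other epithelial cells together stood at 0.312 CPM in the IEC-/- and 0.184 CPM in the IEC+/+ library, so the surface subcluster was 112-fold above them in the IEC-/- and 90.2-fold above them in the IEC+/+ library. The difference between the genotypes was therefore present at nearly its full size within the subcluster, whose cell number differed little.

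**Figure D2:**
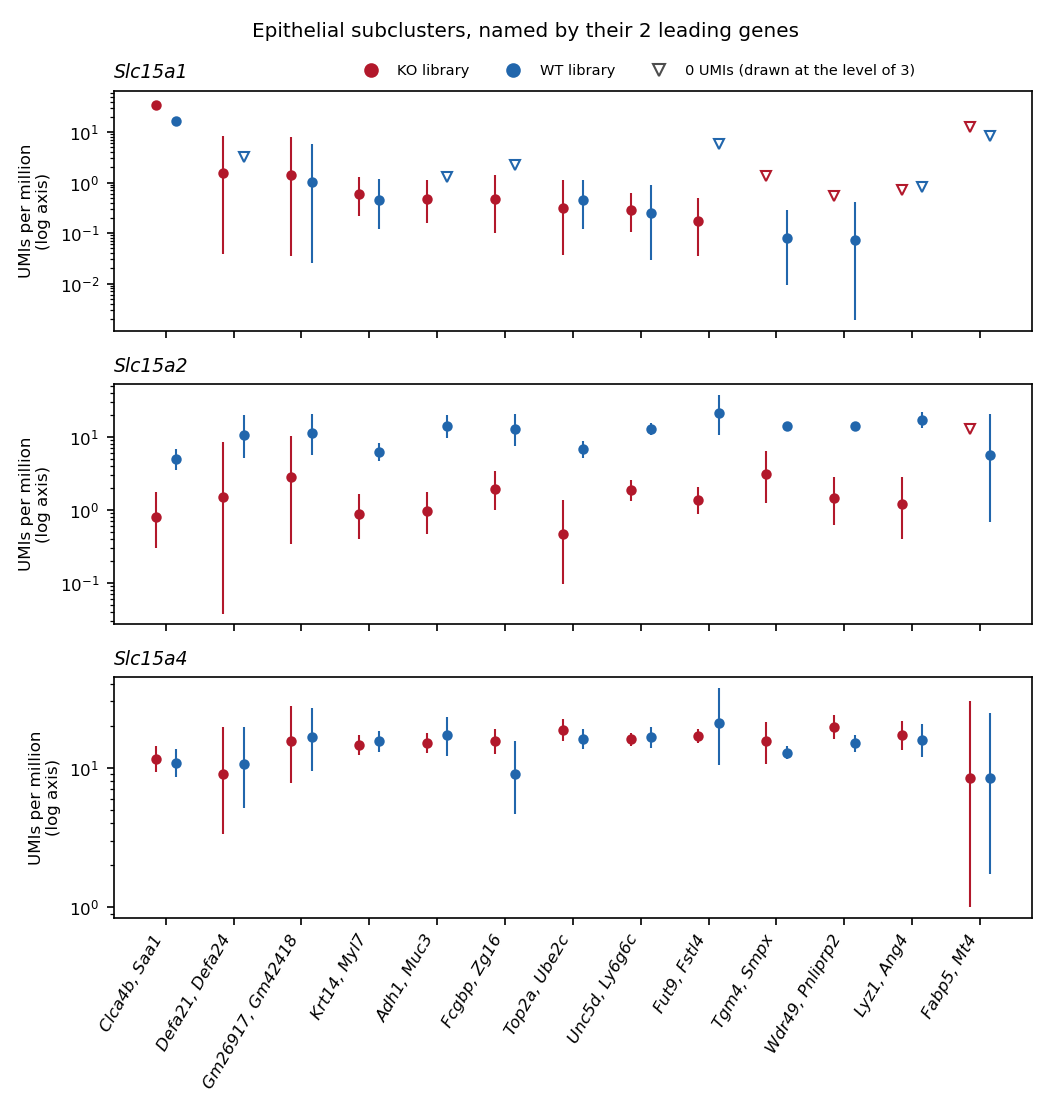
Levels of Slc15a1, Slc15a2 and Slc15a4 in the epithelial subclusters with 20 or more cells in both libraries, named by their leading genes, in CPM on a logarithmic axis with exact 95% Poisson intervals, for the IEC-/- (KO) and IEC+/+ (WT) libraries, and open triangles stand at the level of 3 UMIs where none was counted. Slc15a1 reaches 34.8 and 16.6 CPM in the Clca4b, Saa1 and Ly6m subcluster, whereas Slc15a2 is lower in the IEC-/- library in each subcluster with 20 or more UMIs.

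Within the surface subcluster the gene was unevenly spread. A UMI of Slc15a1 was found in 36.2% of IEC-/- cells (30.7 to 42.0) and 23.9% of IEC+/+ cells (18.7 to 29.9), although the IEC+/+ cells were the deeper. Thinned to 1000 UMIs per cell, the shares were 5.46% in 293 IEC-/- cells and 3.80% in 237 IEC+/+ cells, with intervals that overlapped. The richest cell held 13 UMIs in the IEC-/- and 11 in the IEC+/+ library, and 3 or more UMIs were found in 36 IEC-/- and 14 IEC+/+ cells. The 10 richest cells carried 27.8% of the subcluster's 259 UMIs in the IEC-/- and 46.3% of its 121 UMIs in the IEC+/+ library. Such a share rises as the total falls, so it does not compare the spread of the gene between the libraries. For all epithelial cells the shares were 3.17% in the IEC-/- and 1.72% in the IEC+/+ library, against 0.0807% and 0.0727% of neutrophils, a class in which the carrier is not known. The median depths were 19328 and 20136 UMIs in epithelial cells and 1846 and 2407 UMIs in neutrophils, and after thinning the epithelial shares were 0.44% and 0.24%.

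Other absorptive cells had little of it. The Krt14, Myl7 and Krt36 subcluster had 6 UMIs (0.582 CPM) in the IEC-/- and 4 UMIs (0.451 CPM) in the IEC+/+ library, and the Adh1, Muc3 and Slc5a8 subcluster had 5 UMIs (0.481 CPM) and 0 UMIs. The absorptive subclusters as a whole stood at 9.59 CPM in the IEC-/- and 6.75 CPM in the IEC+/+ library, a log2 ratio of 0.51 (0.20 to 0.83). Stem- or progenitor-like cells had 11 UMIs in each library. An unnamed cluster led by Clca3a2, Myo15b and Nlrp9b, with Saa1 among its first 10 genes, had the highest level of any cluster, 9 UMIs (56.3 CPM) in 106 IEC-/- cells and 15 UMIs (57.5 CPM) in 191 IEC+/+ cells. Its cells were poor in RNA, with a median of 1154 UMIs of which 15.9% were mitochondrial, and its level did not differ between the libraries beyond counting error (log2 ratio −0.03, −1.40 to 1.26). Mitochondrial content touched the epithelial result as well. Where cells over 10% mitochondrial UMIs were left out in place of those over 25%, Slc15a1 had 168 UMIs in the IEC-/- and 115 in the IEC+/+ epithelium, and the log2 ratio was 0.66. The part of cell quality in the larger value was not tested.

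Of the 13 brush-border and luminal peptidases with 20 or more UMIs, enzymes that make the peptides Slc15a1 carries, 6 were more than 1.5-fold higher in the surface subcluster than in the other epithelial cells in both libraries. A further 2, Dpp4 and Mme, were lower there in both, and 5 were neither. Mep1a and Mep1b, the subunits of the luminal protease meprin, stood there at 62.6 and 48.2 CPM in the IEC-/- and at 31.7 and 58.8 CPM in the IEC+/+ library, and at 1.87 to 3.23 CPM in the other epithelial cells. Ggt1, which splits glutathione at the cell surface, stood there at 18.7 CPM in the IEC-/- and 25.4 CPM in the IEC+/+ library. Mep1a thus shared the direction of Slc15a1 in this subcluster, while Mep1b and Ggt1 had lower values in the IEC-/- library. Mep1b, Ggt1 and Mme were named after their values were seen.

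Over the whole epithelium, 13 of 14 brush-border and luminal peptidases had 20 or more UMIs, of which 5 were higher and 1 was lower by more than 1.5-fold, beside 6.9% higher and 11.4% lower among all genes, with a median log2 ratio of −0.04 beside −0.06 for all genes. The higher ones included Dpp4, which trims dipeptides from peptide ends (21.2 CPM in IEC-/- and 11.9 CPM in IEC+/+, log2 ratio 0.83), Mep1a (7.92 and 4.05 CPM, 0.97) and the dipeptidase Dpep1 (2.16 and 0.552 CPM, 1.97). The lower one was the carboxypeptidase Cpm, at 90.2 CPM in IEC-/- and 183 CPM in IEC+/+ cells (−1.02). None of the 12 cytosolic peptidases, which finish the digestion of imported peptides, was past 1.5-fold, and their median was −0.10. The difference between these 2 lists was not tested.

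Peptide uptake runs on a proton gradient that apical exchangers maintain. Of the 10 apical proton and ion genes examined, 3 were higher and 2 were lower by more than 1.5-fold, beside 6.9% and 11.4% of all genes, with a median log2 ratio of 0.23 beside −0.06. Slc9a3, the sodium-proton exchanger known to supply Slc15a1 with its gradient, stood at 32.3 CPM in IEC-/- and 82.8 CPM in IEC+/+ epithelial cells (−1.36). Within the surface subcluster, however, Slc9a3 was at 14.1 CPM in IEC-/- and 14.8 CPM in IEC+/+ cells. That was below the other epithelial cells, at 33.8 CPM in the IEC-/- and 88.2 CPM in the IEC+/+ library. The exchanger Slc9a2 stood at 6.80 and 4.10 CPM (0.73), the chloride-bicarbonate exchanger Slc26a3 at 7.85 and 1.98 CPM (1.99), and the carbonic anhydrase Car4 at 5.16 and 1.39 CPM (1.89), in the IEC-/- and IEC+/+ epithelium. Slc26a3 and Car4 had their main level in the surface subcluster, where they reached 76.0 and 51.9 CPM in the IEC-/- and 18.0 and 14.4 CPM in the IEC+/+ library. Of the 10 genes, 5 were more than 1.5-fold higher in this subcluster than in the other epithelial cells in both libraries. A further 3, Pdzk1, Slc9a3 and Slc9a3r2, were lower there in both. The higher genes thus included the surface cell markers Slc26a3 and Car4, which differed between the genotypes by more than Slc15a1 did. Slc9a3, which is also on the absorptive marker list, was not among them.

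Of the amino acid carriers of the epithelium, 13 of 14 had 20 or more UMIs, 3 were higher and none was lower by more than 1.5-fold, beside 6.9% and 11.4% of all genes, and the median was 0.27 beside −0.06. They were Slc6a14, a broad carrier induced in inflamed colon (33.7 CPM in IEC-/- and 21.8 CPM in IEC+/+, log2 ratio 0.62), the proline carrier Slc6a20a (3.48 and 1.96 CPM, 0.83) and Slc3a1, the partner subunit of the cystine carrier (1.21 and 0.732 CPM, 0.73). Of 13 intestinal transcription factors, only Cdx2 was past 1.5-fold, at 15.4 CPM in IEC-/- and 9.14 CPM in IEC+/+ cells (0.75), with a median of 0.04 for the list. This was 1 of 13 higher, close to the 6.9% of all genes. Cdx2 is a homeobox factor of intestinal identity, known in human cells to act on this carrier's gene. In the surface subcluster Cdx2 stood at 23.0 CPM in IEC-/- and 23.8 CPM in IEC+/+ cells, so there it did not share the direction of Slc15a1.

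The genes whose levels across 28 columns of epithelial subcluster by library were most like those of Slc15a1 were Creb3l3, Ly6m and Clca4a, with Pearson correlations of log2(CPM + 1) of 0.912, 0.889 and 0.888 among 13263 genes searched. Across 20 columns of class by library they were Fam160a1, Zfp740 and Scrib (0.881, 0.854 and 0.849). These columns share libraries, differ in depth, and hold few Slc15a1 UMIs outside the epithelium.

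Slc15a2 showed the largest difference between the genotypes of the 4 members, and it was lower in the IEC-/- library in every compared class. Epithelial cells had 129 UMIs in the IEC-/- library, a level of 1.37 CPM (1.15 to 1.63), and 1192 UMIs in the IEC+/+ library, a level of 12.0 CPM (11.3 to 12.7). The log2 ratio was −3.12 (−3.40 to −2.86), an 8.71-fold lower level. In B cells the level was 7.85 CPM (4.06 to 13.7, 12 UMIs) in the IEC-/- and 67.3 CPM (43.9 to 98.6, 26 UMIs) in the IEC+/+ library, with a log2 ratio of −3.10 (−4.22 to −2.06). The intervals of the 2 libraries overlapped in neither class. Slc15a2 was thus lower by a wide margin in the epithelium, and in B cells alike.

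The other classes gave the same direction. Monocytes or macrophages stood at 4.91 CPM (33 UMIs) in the IEC-/- and 27.2 CPM (291 UMIs) in the IEC+/+ library, a log2 ratio of −2.47 (−3.04 to −1.95). T cells stood at 8.86 CPM (28 UMIs) and 41.6 CPM (137 UMIs), a log2 ratio of −2.23. Neutrophils stood at 6.84 CPM (49 UMIs) and 31.2 CPM (219 UMIs), a log2 ratio of −2.19. In none of these classes did the intervals of the libraries overlap, and conventional dendritic cells, with 0 UMIs in 88 IEC-/- cells and 87 UMIs (43.9 CPM) in 206 IEC+/+ cells, gave the widest gap. Plasma cells were the exception, with 12 UMIs (12.8 CPM) in 72 IEC-/- cells and 7 UMIs (7.86 CPM) in 47 IEC+/+ cells, a log2 ratio of 0.70 (−0.76 to 2.28) that includes 0.

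**Figure D3:**
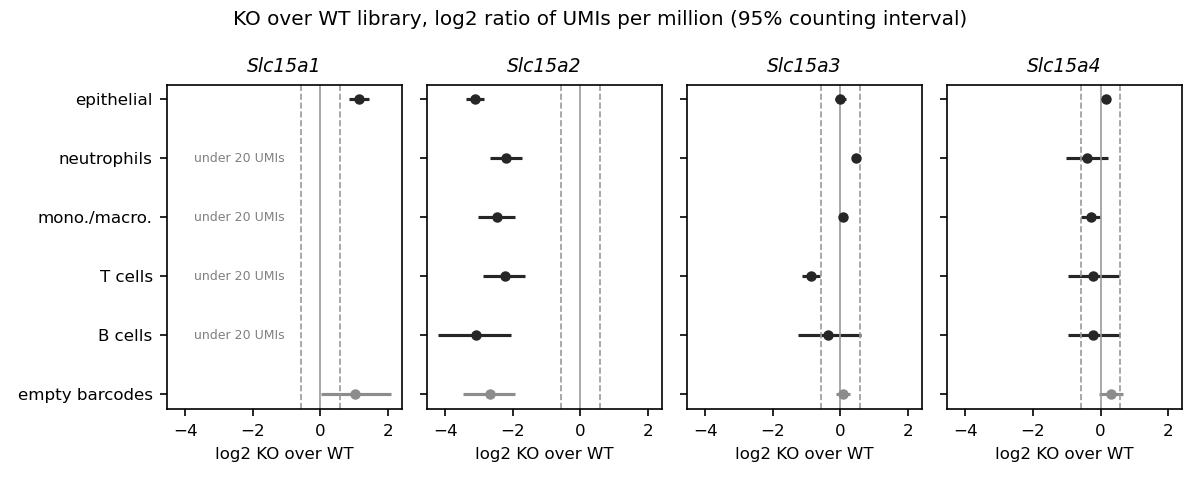
Log2 ratio of the IEC-/- over the IEC+/+ level for each transporter in the 5 compared classes and in barcodes with under 100 UMIs, with exact 95% intervals for counting error, where 20 or more UMIs were counted. The dashed lines mark 1.5-fold. Slc15a2 lies between −3.12 and −2.19 in the classes, and Slc15a1 is at 1.14 in epithelial cells.

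The difference stood far from the bulk of genes. Lower by more than 1.5-fold were 12.5% of the 8081 genes tested in B cells, 8.73% of 11377 in T cells, 11.4% of 18523 in epithelial cells, 7.73% of 12849 in monocytes or macrophages and 6.09% of 11677 in neutrophils. Between 0.186% and 0.291% of the genes tested in each class had a ratio as low as that of Slc15a2 or lower. Of the 7750 genes tested in all 5 classes, 20 (0.258%) were higher by more than 1.5-fold in each of them and 12 (0.155%) were lower in each, and Slc15a2 was among those lower with Camk2b, Gm42031, Hbb-bs, Iglc1, Krt23, Mcpt1, Mcpt2, Mmp7, Plat, Ptn and Retnlg. Several of these are abundant products of a single cell type, such as the mast cell proteases Mcpt1 and Mcpt2 and the globin Hbb-bs. The ratio kept its direction at finer scale, being below 0 in 16 of 16 clusters with 20 or more UMIs, from −4.29 to −1.70.

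Free RNA carried the same difference. Barcodes with under 100 UMIs held 18 UMIs of Slc15a2 (1.96 CPM) in the IEC-/- and 112 UMIs (12.5 CPM) in the IEC+/+ library, a log2 ratio of −2.67, and 8.08% of the genes tested there were lower by more than 1.5-fold. The class levels were set against it. The level over free RNA was 4.53-fold in IEC-/- and 3.33-fold in IEC+/+ T cells, 4.01-fold and 5.38-fold in B cells, 3.49-fold and 2.50-fold in neutrophils, and 2.51-fold and 2.18-fold in monocytes or macrophages. In epithelial cells it was 0.701-fold in the IEC-/- and 0.957-fold in the IEC+/+ library. At the estimated share of free RNA, free RNA would add 0.233 CPM to IEC-/- and 1.26 CPM to IEC+/+ classes, below the measured levels. After its subtraction the log2 ratio was −3.20 in epithelial cells, −3.09 in B cells, −2.44 in monocytes or macrophages, −2.19 in T cells and −2.15 in neutrophils. The 12 epithelial markers, all detected, summed to between 1862 and 2713 CPM in the 4 IEC-/- immune classes. In the 4 IEC+/+ immune classes they summed to between 1674 and 2160 CPM. The part of epithelial RNA in the Slc15a2 ratios of the immune classes was not tested beyond free-RNA subtraction.

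The share of cells with a Slc15a2 UMI followed the level. It was 2.43% of IEC-/- and 17.6% of IEC+/+ epithelial cells, 1.98% and 18.3% of B cells, 2.51% and 12.5% of T cells, 3.03% and 12.9% of monocytes or macrophages, and 1.08% and 6.29% of neutrophils. Thinned to 1000 UMIs per cell, the shares were 0.171% and 1.22% in epithelial cells, 0.802% and 4.31% in B cells and 1.08% and 4.23% in T cells, again with the IEC-/- library the lower. No class served as one that should lack this gene, so these shares have no background of that kind. In the epithelium the 10 richest cells held 21.7% of 129 UMIs in the IEC-/- and 5.87% of 1192 UMIs in the IEC+/+ library. These shares come from unlike totals and are not comparable between the libraries. A total of 102 IEC-/- and 755 IEC+/+ cells had at least 1 UMI. In the IEC+/+ library the transcript was thus spread over many cells rather than held by a few.

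Slc15a2 was not tied to a branch of the epithelium. Stem- or progenitor-like cells stood at 1.54 CPM in the IEC-/- and 12.7 CPM in the IEC+/+ library, goblet-like cells at 1.92 and 12.7 CPM, Paneth-like or deep crypt secretory cells at 1.45 and 13.8 CPM, and absorptive cells at 0.888 and 6.69 CPM. All 4 sub-types were lower in the IEC-/- library by log2 ratios of −3.25 to −2.72. The cycling subcluster led by Top2a stood at 0.464 CPM in IEC-/- and 6.76 CPM in IEC+/+ cells, and the surface subcluster, where Slc15a1 was high, at 0.807 and 4.93 CPM. The surface cells therefore had the most Slc15a1 and, in the IEC+/+ library, the lowest value of Slc15a2 of the subclusters. That low rank was within counting error. The IEC+/+ interval of 3.46 to 6.83 CPM overlapped those of other subclusters, such as Krt14 (4.67 to 8.07) and Top2a (5.17 to 8.69). Enteroendocrine cells had the highest level, 42.5 CPM in the IEC+/+ library, but from only 9 UMIs in 15 cells, and 6.01 CPM from 2 UMIs in 27 IEC-/- cells.

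The immune classes differed in the mix of their clusters. IEC-/- neutrophils were mostly the cluster led by G0s2, Nlrp3 and Ccrl2 (71.6% of cells, against 36.9% in IEC+/+), whereas the cluster led by Ngp, Ifitm6 and Mmp8 held 3.39% of IEC-/- and 36.1% of IEC+/+ neutrophils. Within the first of these clusters Slc15a2 stood at 7.63 CPM in IEC-/- and 36.5 CPM in IEC+/+ cells. In the other it stood at 6.54 CPM (2 UMIs) and 31.3 CPM (95 UMIs), a log2 ratio of −2.26 (−5.33 to −0.37). In the F13a1 and Chil3 cluster, a monocyte-like group that held 67.1% of IEC-/- and 62.5% of IEC+/+ cells of its class, it was 8.83 and 32.9 CPM. The C1q cluster led by Apoe, the more macrophage-like group, had 4 UMIs (1.19 CPM) in the IEC-/- and 131 UMIs (23.1 CPM) in the IEC+/+ library, a log2 ratio of −4.27 (−6.17 to −2.88). The difference thus kept its direction within these clusters, though the Ngp and Apoe clusters held few IEC-/- UMIs.

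Slc15a2 lies on the chromosome of the targeted gene, with 1.30 Mb between the facing edges of Slc15a2 and Gsk3b, so the genes around Slc15a2 were read as well. Within 3 Mb of Slc15a2, 67 other genes had 20 or more UMIs in epithelial cells, of which 8 (11.9%) were lower and 3 (4.48%) were higher by more than 1.5-fold, against 11.4% lower and 6.9% higher among all genes. In monocytes or macrophages 2 of 50 (4%) were lower and 3 (6%) were higher, against 7.73% and 5.98% of all genes. In T cells 3 of 38 (7.89%) were lower and 3 were higher, against 8.73% and 7.81%, and in B cells 3 of 28 (10.7%) were lower and 1 (3.57%) was higher, against 12.5% and 13.3%. In neutrophils 5 of 50 (10%) were lower, namely Mylk, Stfa1, Cstdc5, Stfa2 and Stfa3, and 15 (30%) were higher, against 6.09% and 18% of all genes. The nearest genes on either side, Ildr1 and Eaf2, had epithelial log2 ratios of 0.085 and −0.46. Over the 5 classes Ildr1 lay between −1.01 in T cells (28 and 59 UMIs) and 0.37 in B cells. Eaf2 lay between −0.46 in epithelial cells and 0.89 in neutrophils. No other gene of this window was among the 12 that were lower in all 5 classes, a rule that at most the 28 neighbours tested in B cells could have met. Outside the window, Iglc1 (chr16:19061618-19062071) and Retnlg (chr16:48872621-48874496), both among the 12, lie on the same chromosome as Slc15a2 and Gsk3b. In epithelial cells the share of lower genes in this window, Slc15a2 aside, was thus close to that of all genes. In neutrophils the lower and the higher share were both above those of all genes. There Stfa1, Cstdc5, Stfa2 and Stfa3, at −0.486 to −0.315 Mb from Slc15a2, had log2 ratios of −1.06, −1.07, −2.01 and −1.66. Csta3, at −0.553 Mb, was higher there (0.81). What lies behind these neutrophil values was not tested.

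**Figure D4:**
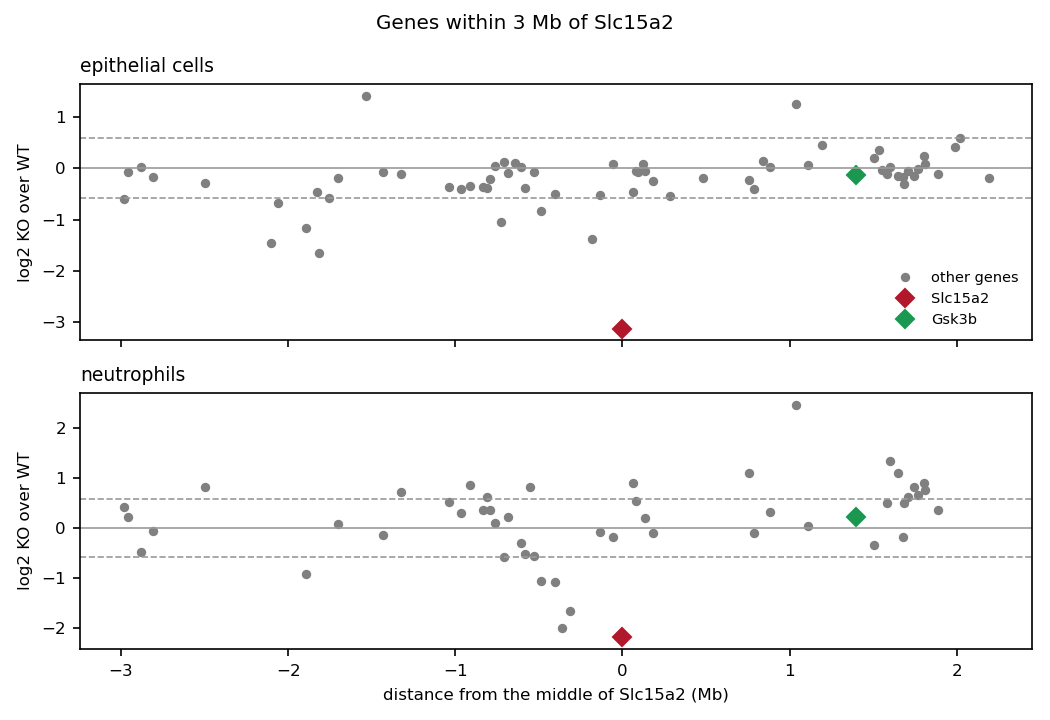
Log2 ratio of IEC-/- over IEC+/+ for genes within 3 Mb of Slc15a2, by distance from it in Mb, in epithelial cells and in neutrophils. Dashed lines mark 1.5-fold, and only genes with 20 or more UMIs are drawn. Slc15a2 lies at −3.12 in epithelial cells and −2.19 in neutrophils, and Gsk3b at −0.13 and 0.22.

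The order of classes for Slc15a2 also differed between the libraries, though most neighbours in it overlapped. In the IEC+/+ library B cells, conventional dendritic cells (43.9 CPM) and T cells led, and each of these intervals overlapped the next. In the IEC-/- library plasma cells, T cells, B cells and neutrophils led with overlapping intervals. Across 20 columns of class by library the most like genes were Pp2d1, Adprm and Mptx2, with correlations of only 0.672, 0.663 and 0.647, so no gene followed Slc15a2 closely.

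Slc15a3, the lysosomal carrier of myeloid cells, had its highest level in neutrophils in both libraries. Neutrophils stood at 388 CPM (374 to 403, 2781 UMIs) in the IEC-/- and 280 CPM (268 to 292, 1963 UMIs) in the IEC+/+ library. Monocytes or macrophages followed at 247 CPM (235 to 259, 1657 UMIs) and 236 CPM (227 to 245, 2522 UMIs), and T cells at 54.1 CPM (46.3 to 62.9) and 98.9 CPM (88.5 to 110). The intervals of these 3 classes did not overlap within either library. Epithelial cells stood lowest, at 5.85 CPM in the IEC-/- and 5.86 CPM in the IEC+/+ library, far below the free RNA level of 39.7 and 37.8 CPM.

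In neutrophils Slc15a3 was higher in the IEC-/- library, with a log2 ratio of 0.47 (0.39 to 0.56), which is below 1.5-fold. Of the 11677 genes tested in neutrophils, 18% were higher and 6.09% were lower by more than 1.5-fold, the median log2 ratio of all genes was 0.17, and 24.1% had a ratio at or above that of Slc15a3. Its ratio thus exceeded that of the median gene by a modest amount. The neutrophil clusters were mixed differently in the libraries, as given above, and the ratio was above 0 in each of the 5. The level was 424 CPM in IEC-/- and 351 CPM in IEC+/+ cells of the G0s2 cluster (log2 ratio 0.27, 0.16 to 0.39) and 347 and 279 CPM in the Ngp cluster (0.32, 0.01 to 0.61). It was 316 and 183 CPM in the Eldr and Cc2d2b cluster (0.79, 0.37 to 1.23), and the largest ratio was found there. The Gbe1 and Hmox1 cluster (206 and 149 CPM) and the Cxcr2 and Slfn1 cluster (258 and 191 CPM) had ratios of 0.47 and 0.43 whose intervals reached down to 0. The 15 monocyte or macrophage markers, all detected, summed to 540 CPM in IEC-/- and 819 CPM in IEC+/+ neutrophils. The part of macrophage RNA in the neutrophil values of Slc15a3 was not tested.

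**Figure D5:**
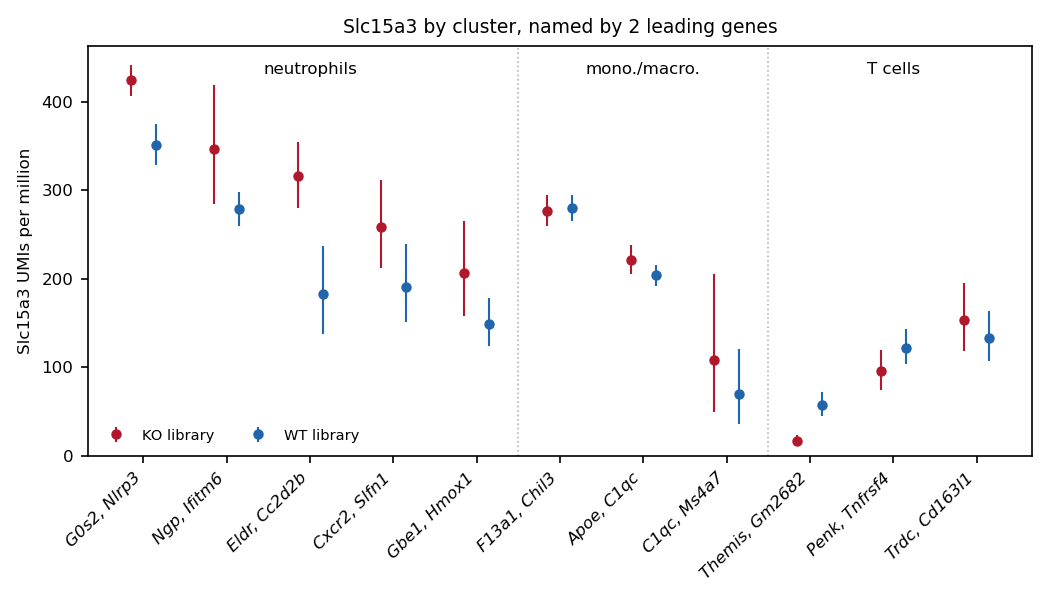
Level of Slc15a3 in clusters of neutrophils, monocytes or macrophages and T cells, named by their leading genes, in CPM with exact 95% Poisson intervals, for the IEC-/- (KO) and IEC+/+ (WT) libraries. All 5 neutrophil clusters are higher in the IEC-/- library, and the Themis, Gm2682 and Ifng cluster of T cells is lower, at 16.4 and 57.6 CPM.

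The share of neutrophils with a Slc15a3 UMI was 46.6% in the IEC-/- and 46.1% in the IEC+/+ library, though IEC-/- neutrophils were shallower (median 1846 and 2407 UMIs). Thinned to 1000 UMIs, the shares were 30.2% of 3475 IEC-/- and 23.3% of 2600 IEC+/+ cells. In monocytes or macrophages the shares were 73.9% and 69.3%, and 23.1% and 20.1% after thinning. Epithelial cells, in which the carrier is not known to be abundant, had a UMI in 11.7% of IEC-/- and 11.9% of IEC+/+ cells at a far greater depth, and in 0.391% and 0.528% after thinning. The myeloid shares were thus far above the epithelial ones, at full depth and at equal depth.

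In monocytes or macrophages the ratio was 0.07 (−0.03 to 0.16), an interval that includes 0. The F13a1 and Chil3 cluster stood at 276 CPM in the IEC-/- and 280 CPM in the IEC+/+ library, and the C1q cluster led by Apoe at 221 and 204 CPM. Slc15a3 in these cells therefore differed by less than counting error.

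In T cells Slc15a3 was lower in the IEC-/- library, with a log2 ratio of −0.87 (−1.15 to −0.60) from 171 and 326 UMIs. Of the 11377 genes tested there, 7.81% were higher and 8.73% were lower by more than 1.5-fold, and 3.98% had a ratio as low or lower. The difference lay in the cluster led by Themis, Gm2682 and Ifng, with Nkg7 and Ccl5, genes of cytotoxic cells, at 16.4 CPM (32 UMIs) in the IEC-/- and 57.6 CPM (75 UMIs) in the IEC+/+ library (−1.82, −2.46 to −1.20). The Penk, Tnfrsf4 and Foxp3 cluster, which has the regulatory T cell factor Foxp3 among its leading genes, stood at 95.2 and 122 CPM (−0.36, −0.78 to 0.04), and the Trdc, Cd163l1 and Il17a cluster at 153 and 133 CPM (0.20, −0.28 to 0.68). The Themis cluster held 57.9% of IEC-/- and 37.8% of IEC+/+ T cells, so the low-level cluster was also the larger in the IEC-/- library. Markers of other cells moved with this result. The 13 neutrophil markers, all detected, summed to 994 CPM in IEC-/- and 1521 CPM in IEC+/+ T cells, and the 15 monocyte or macrophage markers summed to 320 CPM, with Adgre1 at 0, and 610 CPM, with none at 0. The part of myeloid RNA in the T cell difference was not tested beyond free-RNA subtraction, after which the log2 ratio was −0.92.

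B cells had 28.1 CPM in the IEC-/- and 36.2 CPM in the IEC+/+ library, 0.709-fold and 0.958-fold of the free RNA level, and fibroblasts had 34.9 and 30.6 CPM, 0.878-fold and 0.808-fold of it. Conventional dendritic cells stood at 50.8 CPM in the IEC-/- library, 1.28-fold (0.906 to 1.76) of free RNA, and at 70.6 CPM in the IEC+/+ library, 1.87-fold (1.52 to 2.28) of it. At its estimated share, free RNA would add 4.72 CPM to IEC-/- and 3.81 CPM to IEC+/+ classes, below each of these levels. Of the epithelial level of 5.85 CPM in the IEC-/- and 5.86 CPM in the IEC+/+ library, these amounts would be the larger part. The overlapping gene Tmem132a stood at 6.56 CPM (47 UMIs) in IEC-/- and 3.71 CPM (26 UMIs) in IEC+/+ neutrophils, a difference in the direction of Slc15a3. In epithelial cells Tmem132a stood at 17.3 and 18.1 CPM, above its neutrophil level, whereas Slc15a3 was far lower in epithelial cells than in neutrophils. Across 20 columns of class by library, the genes most like Slc15a3 were Ehd1, Slfn2 and Ccr1 (correlations of 0.94, 0.93 and 0.922).

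Slc15a4, the endolysosomal carrier that works with Tasl, was found in every class, and in none of the 5 compared classes did it differ by more than 1.5-fold between the genotypes. B cells had its highest level, 44.5 CPM (34.6 to 56.4, 68 UMIs) in the IEC-/- and 51.8 CPM (31.6 to 79.9, 20 UMIs) in the IEC+/+ library, a log2 ratio of −0.22 (−0.96 to 0.58). B cells are known to need Slc15a4 for signals from endosomal Toll-like receptors. Here they were 2.49-fold above free RNA in the IEC-/- and 3.60-fold above it in the IEC+/+ library. The share of B cells with a UMI was 11.9% and 14.2%, and 4.41% and 3.45% after thinning, with overlapping intervals.

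Epithelial cells held the most UMIs of Slc15a4, 1501 in the IEC-/- and 1418 in the IEC+/+ library, at 16.0 CPM (15.2 to 16.8) and 14.2 CPM (13.5 to 15). The log2 ratio was 0.17 (0.06 to 0.27), well under 1.5-fold, and 21.1% of genes tested had a ratio at or above it. Free RNA stood at 17.8 CPM in the IEC-/- and 14.4 CPM in the IEC+/+ library, so the epithelial level was 0.895-fold and 0.988-fold of it. By sub-type the level was 16.6 and 14.2 CPM in stem- or progenitor-like cells, 14.0 and 13.8 CPM in absorptive cells and 18.5 and 14.6 CPM in Paneth-like or deep crypt secretory cells. Goblet-like cells stood at 15.5 CPM (97 UMIs) and 8.94 CPM (12 UMIs), a log2 ratio of 0.80 (−0.07 to 1.80) that includes 0. These 4 sub-types lay between 14.0 and 18.5 CPM in the IEC-/- library, whereas the 27 enteroendocrine cells stood at 39.1 CPM (20.8 to 66.8) from 13 UMIs. Glt1d1, which overlaps Slc15a4, stood at 9.89 CPM in IEC-/- and 8.11 CPM in IEC+/+ epithelial cells, a difference in the same direction.

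Myeloid cells showed a small difference the other way. Monocytes or macrophages stood at 23.4 CPM (19.9 to 27.3, 157 UMIs) in the IEC-/- and 28.5 CPM (25.4 to 31.9, 305 UMIs) in the IEC+/+ library, a log2 ratio of −0.29 (−0.57 to −0.01). In this class 5.98% of genes tested were higher and 7.73% were lower by more than 1.5-fold, and 18.6% had a ratio as low or lower. The C1q cluster led by Apoe had 29.9 and 36.3 CPM and the F13a1 and Chil3 cluster 17.0 and 18.4 CPM, so the macrophage-like group had the higher level in both libraries. Neutrophils were low, at 5.86 CPM in IEC-/- and 7.70 CPM in IEC+/+ cells (−0.39, −1.01 to 0.22), and T cells stood at 9.18 and 10.6 CPM. Both were under the free RNA level. Across 20 columns of class by library, the genes most like Slc15a4 were Necap1, Scpep1 and Rraga (correlations of 0.863, 0.819 and 0.785).

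Slc15a3 and Slc15a4 act beside the Nod receptors and endosomal Toll-like receptors. In monocytes or macrophages, 15 of 17 genes of that pathway had 20 or more UMIs, none was higher and 1 was lower by more than 1.5-fold, beside 5.98% higher and 7.73% lower among all genes, and the median log2 ratio was −0.20, beside 0.02 for all genes. The lower one was Tasl, the partner of Slc15a4, at 14.9 CPM (100 UMIs) in the IEC-/- and 27.2 CPM (291 UMIs) in the IEC+/+ library, a log2 ratio of −0.87 (−1.21 to −0.54). Tasl and Slc15a4 thus both lay below 0 in these cells, Tasl by more, as did the median of the list. Unc93b1, which carries the receptors to endosomes, stood at 269 and 369 CPM (−0.45), and Irf5 at 80.7 and 84.7 CPM (−0.07). In neutrophils 3 of 15 genes tested were higher and 1 was lower, close to the 18% and 6.09% of all genes, with a median of 0.20 beside 0.17 for all genes. Named after their values were seen, these were Nod1 (37.8 CPM in IEC-/- and 19 CPM in IEC+/+), Irf5 (28.2 and 16.0 CPM), Tlr3 (2.51 and 1.57 CPM) and, lower, Tlr8 (1.40 and 3.42 CPM). Tlr3 rested on 18 and 11 UMIs, with an interval of −0.48 to 1.91 that includes 0. The ratio of Nod1, a receptor for bacterial muropeptides, was 1.00 (0.69 to 1.31). In neutrophils Tasl was at 0.20 (−0.06 to 0.46) and Slc15a4 at −0.39 (−1.01 to 0.22), opposite in sign, and both intervals include 0.

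Of 19 genes for lysosomal membranes and proteases, 1 was higher and none was lower by more than 1.5-fold in monocytes or macrophages, beside 5.98% and 7.73% of all genes, with a median of −0.03. It was Atp6v0d2, a subunit of the proton pump, at 32.5 CPM in the IEC-/- and 19.2 CPM in the IEC+/+ library (0.76). In neutrophils none was higher and 2 were lower, beside 18% and 6.09% of all genes. The lower ones were the protease Ctsl (148 and 240 CPM) and Atp6v0d2 (2.65 and 7.84 CPM), both named after their values were seen, and the median of the list was −0.03 beside 0.17 for all genes.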

How the data were processed

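Single-cell RNA-seq was measured in 1 IEC-/- and 1 IEC+/+ tumour library, prepared with the 10x Genomics 3′ kit. The authors deposited unfiltered counts of UMIs per gene and barcode, made with Cell Ranger 4 per the file headers; mm10, Cell Ranger and Seurat are named in the submitters' processing notes without roles, and the annotation release and strand setting are not given in the sources used here. No matrix column belonged to another sample.

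From these counts, barcodes with 500 or more UMIs that departed from the profile of barcodes with under 100 UMIs (10000 Monte Carlo draws, false discovery rate 0.001), or that had at least 10% of the UMIs of the barcode at percentile 99 of the top 10000, were called cells. A cell was dropped below 200 genes or above 25% mitochondrial UMIs, which took out 1522 IEC-/- and 1455 IEC+/+ barcodes for mitochondrial UMIs. Doublets were removed by the highest Scrublet scores at 0.8% per 1000 cells, 1086 and 940 barcodes, because the caller's own threshold marked 381 and 2. Cells of both libraries were clustered together with scanpy 1.11.5 and leidenalg 0.10.2 (2000 variable genes without the 4 transporters, 30 components, 15 neighbours, resolution 1; epithelial cells again at 0.6), giving 29 clusters. Clusters were named from marker lists by at least 3 markers. Each had to be in 25% or more of the cluster's cells, at 2-fold or more over the lower quartile of cluster means. A name was withheld, among other reasons, where the cluster's leading genes held more markers of another list. For classes, leading genes were ranked by fold over cells of other classes, and the offset of 0.3 in that fold was set after the clusters had been seen. Names were rebuilt here, and unnamed clusters held 132 IEC-/- and 191 IEC+/+ cells.

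UMIs were summed per class and library, and CPM is counts per 1000000 UMIs of the class. Levels have exact Poisson intervals, ratios exact conditional binomial intervals and shares of cells Clopper-Pearson intervals, all at 95% and for counting error only, since amplified molecules from 1 library are not replicates. No test was made, no SD can be given, and a ratio was read as a difference of note past 1.5-fold, in genes with 20 or more UMIs over both libraries. A level from 0 UMIs was bounded by 3 UMIs. The share of free RNA was taken from immunoglobulin UMIs in cells other than B or plasma cells. The interval code was tested on simulated data. Python 3.11.15, numpy 2.4.6, scipy 1.17.1 and pandas 2.3.3 were used.

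The members and the gene lists were chosen with earlier results of these data known. Named were the 4 members, Slc15a5 and Gsk3b, up to 4 genes of each pathway list past 1.5-fold with the most UMIs, and the 3 genes most like each member, from 13263 genes with 200 or more UMIs. Alternatives changed the cell calling, mitochondrial limit, doublets, clustering, scaling, low-count filter, weighting of cells, free RNA and depth per cell.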

Additional observations from a re-analysis of the deposited data

Results flagged for a closer look

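Slc15a3 differed between the genotypes in opposite directions in different classes. Its log2 ratio of IEC-/- over IEC+/+ was 0.47 in neutrophils (388 and 280 CPM) and −0.87 in T cells (54.1 and 98.9 CPM). It was picked out because neither interval includes 0 and the 2 signs are opposite, and with 1 library per genotype the difference between the classes was not tested.

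Slc15a4 did the same on a smaller scale. Its log2 ratio was 0.17 in epithelial cells (16.0 and 14.2 CPM) and −0.29 in monocytes or macrophages (23.4 and 28.5 CPM), both within 1.5-fold. The epithelial value lay between −0.04 and 0.22 over 17 alternatives and was below 0 in 1 of them, with cells thinned to 1000 UMIs. The difference between these classes was not tested either.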

How the results depend on the processing

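Of 59 alternative values for the log2 ratio of each member in its highest class, 57 stayed within counting error of the value given, and none past 1.5-fold changed sign. Slc15a4 in B cells, given as −0.22, lay between −0.29 and 0.48 and was above 0 in 3 of 14. The epithelial ratio of Slc15a1 was 0.66 with the mitochondrial limit at 10%, and the neutrophil ratio of Slc15a3 was 0.31 with median-of-ratios scaling, which takes out the median gene's shift of 0.17 in that class; for Slc15a1 the cause was not tested. Over all 17 alternatives Slc15a1 in epithelial cells lay between 0.66 and 1.33, past 1.5-fold in each. Slc15a2 was lower past 1.5-fold in each of the 5 classes under every alternative run, from −3.23 to −2.57 in epithelial cells, −3.17 to −2.11 in B cells, −2.36 to −2.12 in neutrophils, −2.27 to −1.93 in T cells and −2.60 to −2.33 in monocytes or macrophages. Slc15a3 lay between 0.31 and 0.51 in neutrophils and between −0.92 and −0.61 in T cells. Of the 205 other ratios, 195 stayed within counting error and 10 moved, and none past 1.5-fold changed sign. Values nearer 0 did change sign. Slc15a3 in B cells lay between −0.45 and 1.07, above 0 in 2 of 14 and past 1.5-fold in 1, with cells thinned to 1000 UMIs (18 and 2 UMIs), and Slc15a4 in epithelial cells was −0.04 with thinned cells, below 0 in 1 of 17. Among the others, Slc15a3 in epithelial cells was −0.83 after free RNA was subtracted, and Slc15a4 in monocytes or macrophages lay between −0.79 and −0.25, past 1.5-fold in 2 of 14 alternatives. Of 40 shares of cells, 37 moved when cells were thinned, since fewer UMIs per cell were read. A further 3 alternatives for the epithelium were chosen after seeing the data, and Slc15a1 was 1.03 with unnamed epithelial-scoring clusters counted, 0.85 without the Clca4b and Saa1 cluster and 1.15 without the Gm26917 and Gm42418 cluster. The value of 0.85 is given without an interval. Epithelial cells outside the Clca4b, Saa1 and Ly6m subcluster held only 27 Slc15a1 UMIs in the IEC-/- and 17 in the IEC+/+ library.

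No paired analysis was possible because each genotype had 1 library. Classes with few UMIs, such as Slc15a2 in B cells, limit the ratio to wide intervals.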

Other observations

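Classes with under 100 cells in a library also held the transporters. In fibroblasts Slc15a4 stood at 16.8 CPM (27 UMIs in 203 cells) in the IEC-/- and 36.7 CPM (12 UMIs in 33 cells) in the IEC+/+ library, a log2 ratio of −1.13 (−2.16 to −0.01). In blood endothelial cells, which line the vessels, Slc15a2 stood at 3.01 CPM (2 UMIs) and 28.1 CPM (10 UMIs), and Slc15a3 at 12.0 CPM (8 UMIs) and 16.9 CPM (6 UMIs). Mast cells had 0 UMIs of Slc15a2 in 64 IEC-/- cells and 8 UMIs (12.6 CPM) in 150 IEC+/+ cells, and 4 UMIs (13.5 CPM) and 6 UMIs (9.43 CPM) of Slc15a4. Plasma cells, which secrete antibody, had 10 UMIs of Slc15a4 (10.6 CPM) in the IEC-/- and 17 UMIs (19.1 CPM) in the IEC+/+ library. In enteroendocrine cells, the hormone-secreting cells of the epithelium, Slc15a4 reached 39.1 CPM (13 UMIs) in the IEC-/- and 23.6 CPM (5 UMIs) in the IEC+/+ library, against 14.0 and 13.8 CPM in absorptive cells.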
